A study of Arabidopsis thaliana with 6 samples.

Results

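The transposable element (TE) genes of Arabidopsis thaliana chromosome 5 are the rows of the deposited TE gene table whose identifier starts with AT5G, 805 of 3901 TE genes in all. They were chosen by identifier alone, with no measured value, and the reference annotation (TAIR10.1) places all of them on chromosome 5 as pseudogenes, with spans of 159 to 15195 bases. Total RNA was sequenced from 7-day seedlings of tsk-4, a line mutant in the gene TONSOKU (TSK) in the Col ecotype, and of wild-type Col, with 3 libraries per genotype. Nothing in the labels says that the libraries of a genotype came from separate plant cultures, so p-values measure the spread between these libraries, which may be technical. The series asked how TONSOKU bears on the maintenance of repressive chromatin marks.

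TE genes are the parts of transposons that annotation recognises as gene-like, mostly reading frames of retrotransposons and DNA transposons. In Arabidopsis they are held silent by DNA methylation in CG and non-CG contexts, by dimethylation of histone H3 lysine 9, and by small RNAs that guide methylation to new copies. On each chromosome they crowd around the centromere, while scattered copies lie between the genes of the arms. TONSOKU is a nuclear protein that binds newly replicated chromatin and acts in repair of broken replication forks.

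Levels are in TPM, transcripts per 1000000, which are reads divided by the length of the TE gene and scaled to 1000000 within the TE gene table of a library. The values were whole multiples of what 1 read is worth, so the reads behind them could be recovered. Over 1 kb, 1 read was worth 99.6 to 123 TPM, and most members with a value above 0 rested on a handful of reads, so results are given in reads as well as in TPM. In all, TE genes took 24356, 21413 and 24565 reads in tsk-4 1, 2 and 3, against 20505, 21628 and 20595 in Col 1, 2 and 3. The gene table held 13702601 to 14918327 reads per library. TSK itself measured 0.903 ± 0.0657 TPM in tsk-4 and 3.62 ± 0.234 TPM in Col in the gene table (SD, n = 3 each; log2 change -1.55 ± 0.20, limma adjusted p = 0.00097).

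The windows of 300 bases shown here begin 250 bases before the annotated 5′ end of a TE gene and end 50 bases into it, on its own strand in TAIR10.1. They belong to the 3 members with the largest log2 change, tsk-4 over Col, of TPM + 50, an order that depends on the scale. AT5G33395 (chr5:12664256-12664555, plus strand) and AT5G33391 (chr5:12648944-12649243, plus strand) have no capitals. In AT5G44925 (chr5:18146583-18146882, minus strand) the capitals mark the 12 bases complementary to the 3′ end of a methionine tRNA, the primer binding site from which many retrotransposons start reverse transcription.
AT5G33395: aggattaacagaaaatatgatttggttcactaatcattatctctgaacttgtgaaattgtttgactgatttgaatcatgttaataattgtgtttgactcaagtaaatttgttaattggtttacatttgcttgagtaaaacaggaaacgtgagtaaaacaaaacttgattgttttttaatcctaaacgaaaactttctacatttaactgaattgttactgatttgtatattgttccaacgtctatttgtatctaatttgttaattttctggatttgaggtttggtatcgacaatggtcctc
AT5G44925: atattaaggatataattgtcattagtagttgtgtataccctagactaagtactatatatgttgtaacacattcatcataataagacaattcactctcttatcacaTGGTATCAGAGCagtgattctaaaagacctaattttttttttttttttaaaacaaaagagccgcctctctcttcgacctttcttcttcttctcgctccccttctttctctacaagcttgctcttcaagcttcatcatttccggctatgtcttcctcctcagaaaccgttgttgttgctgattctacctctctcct
AT5G33391: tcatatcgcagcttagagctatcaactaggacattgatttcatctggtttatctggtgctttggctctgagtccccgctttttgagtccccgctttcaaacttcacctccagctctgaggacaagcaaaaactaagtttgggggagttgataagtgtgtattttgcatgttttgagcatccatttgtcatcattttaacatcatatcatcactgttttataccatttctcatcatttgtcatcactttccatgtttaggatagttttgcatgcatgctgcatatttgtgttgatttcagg

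The windows of the 2 members called lower in tsk-4 are given for contrast. They belong to AT5G35340 (chr5:13562542-13562841, plus strand) and MUG4 (AT5G16505, chr5:5389756-5390055, plus strand), a MUSTANG gene, one of the transposase-derived genes that plants have kept as host genes. Neither holds a complement of a tRNA end.
AT5G35340: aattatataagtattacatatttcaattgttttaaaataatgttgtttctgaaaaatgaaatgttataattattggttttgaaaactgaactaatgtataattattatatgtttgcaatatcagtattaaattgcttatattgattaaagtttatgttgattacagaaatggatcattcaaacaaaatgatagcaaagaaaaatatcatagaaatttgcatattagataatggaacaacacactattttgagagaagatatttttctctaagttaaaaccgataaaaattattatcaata
MUG4: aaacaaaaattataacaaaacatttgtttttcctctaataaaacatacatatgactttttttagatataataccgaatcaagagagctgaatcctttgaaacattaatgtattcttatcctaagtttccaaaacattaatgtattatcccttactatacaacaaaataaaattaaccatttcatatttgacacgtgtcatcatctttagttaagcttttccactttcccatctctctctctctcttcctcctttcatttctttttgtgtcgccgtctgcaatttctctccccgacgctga

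Most TE genes of chromosome 5 gave no read in any library, and more of them gave a read in tsk-4 than in Col. Of the 805 members, 292 had at least 1 read in at least 1 library and 513 were at 0 in all 6. A read was found for 156, 153 and 171 members in tsk-4 1, 2 and 3, against 101, 100 and 95 members in Col 1, 2 and 3. The genotypes did not overlap, with means of 160 ± 9.64 members in tsk-4 and 98.7 ± 3.21 in Col (SD, n = 3 each), a ratio of 1.62 (two-sided exact permutation test over libraries, p = 0.1, the smallest that 3 against 3 allows). With at least 2 reads required, 110 ± 10 members remained in tsk-4 and 67.7 ± 5.13 in Col. With each library scaled down to the depth of the shallowest, the expected numbers were 156 ± 9.07 in tsk-4 and 97.3 ± 3.93 in Col. In whole seedlings, a change in the number of cells that express a TE and a change in RNA per cell cannot be told apart.

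**Figure D1:**
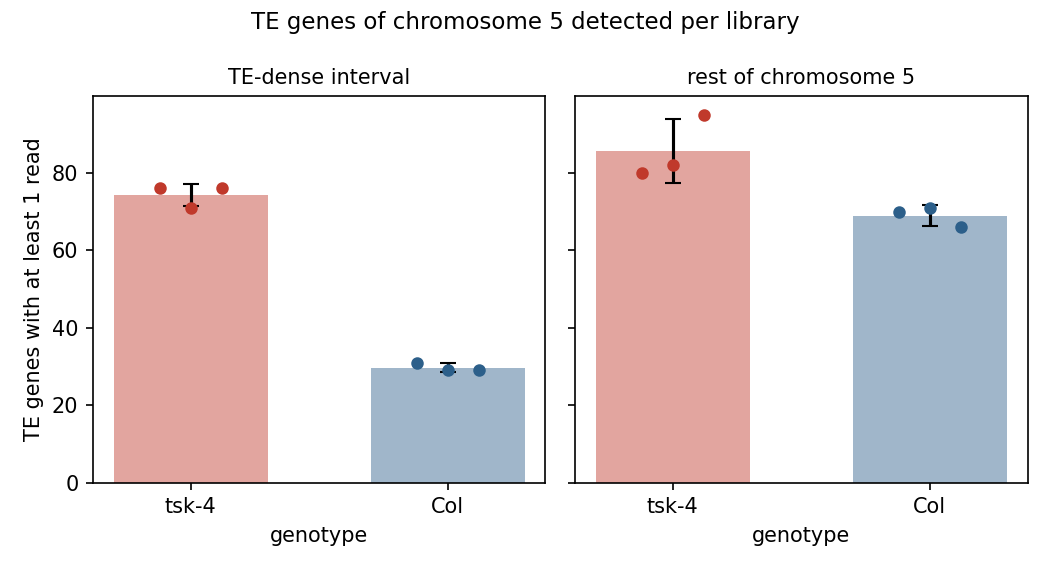
Number of TE genes of chromosome 5 with at least 1 read in each library (y axis), 1 point per library, for tsk-4 and Col (x axis), inside the TE-dense interval of identifiers and outside it. Bars are means with SD. The tsk-4 points lie above the Col points in each panel, at 71 to 76 against 29 to 31 members inside the interval.

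More members were detected in tsk-4 alone than in Col alone, counted here on chromosome 5 only. A read in tsk-4 and none in Col was seen for 143 members, of which 90 had it in 1 tsk-4 library, 28 in 2 and 25 in all 3. A read in Col and none in tsk-4 was seen for 34 members, of which 32 had it in 1 Col library, 2 in 2 and 0 in all 3. The 143 members together held 642 reads with a median of 2 reads each, which was 5.32% of all tsk-4 reads on chromosome 5 TE genes. The 34 members held 47 reads with a median of 1, and none of them had over 5. Reads in both genotypes were seen for 115 members, 51 of them in all 6 libraries.

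The classes of detection differed in length more than in base composition. Members with reads in all 3 tsk-4 libraries and none in Col had a median span of 2799 bases, those in all 6 libraries 3034 bases and those never detected 1560 bases. The median GC content was 43.7%, 41.3% and 41.5% in the same order. A longer TE gene gathers more reads at the same level per length, and how far length set these classes was not tested. A share of 73 to 80% of the members was at least 90% unique in the genome in every class, counting 100-base windows that occur once in TAIR10.1. Over all members, 606 were at least 90% unique and 73 were under 50% unique. The treatment of reads that match several places is not given in the sources used here, so values of the 73 are uncertain.

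The sum of reads on chromosome 5 TE genes differed less than the number detected. Per 1000000 reads of the gene table, the members held 275, 263 and 282 reads in tsk-4, against 237, 242 and 228 in Col. The ranges did not overlap, at 273 ± 9.61 in tsk-4 and 235 ± 7.03 in Col, a ratio of 1.16 (exact permutation p = 0.1). The 5 members with the highest mean TPM held 43.7% of the tsk-4 reads and 48.2% of the Col reads. Without them the members held 154 ± 7.47 reads per 1000000 in tsk-4 and 122 ± 6.01 in Col (exact permutation p = 0.1).

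Chromosome 5 was 1 of 2 chromosomes on which the genotypes did not overlap in reads per 1000000 gene reads. The ratio of tsk-4 to Col was 1.16 on chromosome 5 and 1.23 on chromosome 3 (exact permutation p = 0.1 each), against 0.987 on chromosome 1, 1.06 on chromosome 2 and 1.08 on chromosome 4 (p = 0.8, 0.4 and 0.2). The differences between these ratios were not tested. Chromosome 5 held 17.2 ± 0.433% of all TE gene reads in tsk-4 and 16.2 ± 0.437% in Col (exact permutation p = 0.1). Of all TE genes with a read, 21.4 ± 1.14% lay on chromosome 5 in tsk-4 and 23.3 ± 0.956% in Col (exact permutation p = 0.2). A read was found for 19.9% of the chromosome 5 members in tsk-4 and 12.3% in Col, where the other chromosomes had 17.1 to 20.2% in tsk-4 and 8.44 to 12.1% in Col. The ratio of 1.62 was the lowest of the 5 chromosomes by a small margin, the others lying between 1.64 and 2.02, again with no test of the differences.

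Along the identifier order, which on the whole follows position, the members lay mostly in one run. Bins of 1000 identifier numbers in which at least 50% of the annotated identifiers are TE genes formed 1 run, AT5G28000 to AT5G34999, from 10050551 to 13274842. This TE-dense interval held 500 members (62.1%) and 138 other genes. Identifiers of neighbouring bins interleave in position within it, so a bin is not a strict stretch of the chromosome. The bins with most members were AT5G32000 with 118 and AT5G28000 with 111. The next bin after the run, AT5G35000, held 88 members among 93 other genes and fell just short of the limit at 48.6%.

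Members of the TE-dense interval, which are 62.1% of all members, accounted for most of the added detections in tsk-4. Of the 143 members read in tsk-4 and in no Col library, 90 lay in the interval (62.9%), near that share. Inside it, a read was found for 76, 71 and 76 members in tsk-4, against 31, 29 and 29 in Col. That was 74.3 ± 2.89 members in tsk-4 and 29.7 ± 1.15 in Col, a ratio of 2.51 (exact permutation p = 0.1). Outside it, a read was found for 80, 82 and 95 members in tsk-4, against 70, 71 and 66 in Col, a ratio of 1.24 (exact permutation p = 0.1). The genotypes did not overlap in either place, and the interval held 46.5 ± 2.14% of the detected members in tsk-4 and 30.1 ± 0.933% in Col (exact permutation p = 0.1). In this share all 3 tsk-4 libraries lay above all 3 Col libraries, but it also depends on how few members were read in Col inside the interval. Among members with no Col read, 90 inside had a tsk-4 read and 360 had none, against 53 and 153 outside. By that count a smaller part of the members without a Col read gained one inside than outside, a difference that was not tested.

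**Figure D2:**
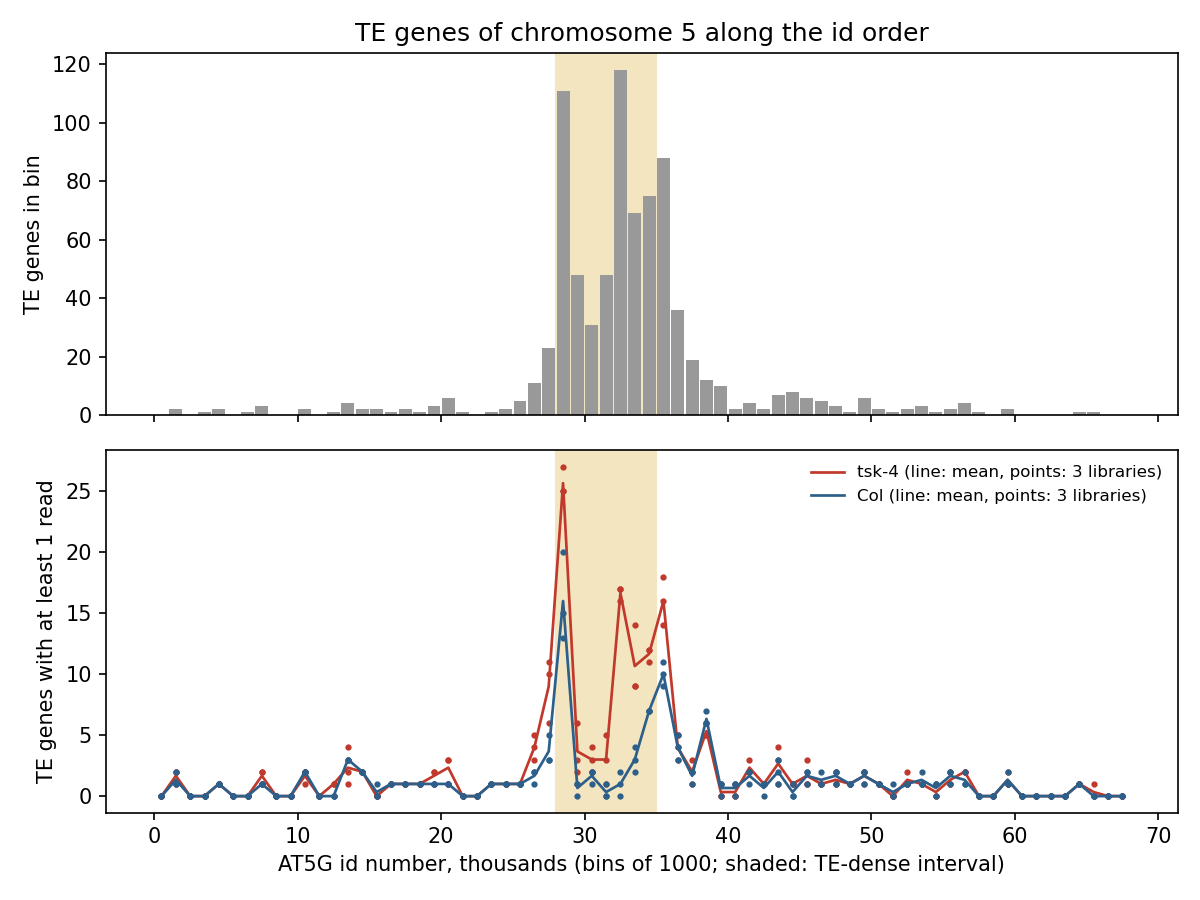
Members per bin of 1000 identifier numbers (upper panel, y axis in TE genes) and members with at least 1 read per library in the same bins (lower panel, y axis in TE genes), for tsk-4 and Col, with the TE-dense interval shaded; the x axis is the AT5G identifier number in units of 1000. In the bin AT5G32000 the tsk-4 libraries detect 16 to 17 members and the Col libraries 0 to 2.

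The bin AT5G32000 was almost empty in Col. Its 118 TE genes stand among 9 other genes, and 17, 17 and 16 of them had a read in tsk-4, against 0, 2 and 1 in Col. In the bin AT5G28000, at the edge of the interval, 27, 25 and 25 of 111 members had a read in tsk-4, against 20, 15 and 13 in Col. In AT5G34000, 12, 11 and 12 of 75 had a read in tsk-4, against 7 in each Col library. The difference between genotypes thus varied in size between bins of the same interval, and these 3 bins were picked after their values were seen.

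The reads themselves were not shifted toward the interval in the same measure. Inside it lay 25.6, 23.9 and 25.8% of the chromosome 5 TE gene reads in tsk-4, against 24.5, 23.8 and 22.4% in Col. The ranges overlapped, and the difference was 1.52 percentage points (exact permutation p = 0.2). With bins of at least 30% TE genes included, the shares were 34.0% in tsk-4 and 34.5% in Col, a difference of -0.47 percentage points (exact permutation p = 0.5). Per 1000000 gene reads, the interval held 68.5 ± 5.17 in tsk-4 and 55.4 ± 3.88 in Col.

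Member by member, the test was limma on log2(TPM + 50), fitted on the whole TE gene table with p-values adjusted over all 543 TE genes that had a value above 0 in at least 3 of the 6 libraries. On this scale, where 50 TPM is about 1 read in 2 kb, changes of low TE genes are understated. Of the 805 members, 124 entered the test. Of these, 29 were called higher in tsk-4 (23.4%), where 25.0% of all TE genes tested were called higher, and 2 were called lower (1.61%), where 3.31% of all were. The share called was near that of the whole table in both directions. On the other chromosomes 107 of 419 TE genes were called higher and 16 lower. All 3 tsk-4 libraries lay above all 3 Col libraries in 32 of the 124 (25.8%; 30% of all TE genes tested, 163 of 543) and below them in 9 (7.26%; 8.47% of all). The median log2 change was 0.11 over the 124 members and 0.25 over all TE genes tested.

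The filter bears on that count. Called higher were all 25 members read in all 3 tsk-4 libraries but in no Col library. They entered the test only through the group in which they were high and so had to differ. Among the other 99 tested members, 4 were called higher. Leaving out Col 1 gave 13 members called higher and leaving out Col 2 gave 15. Leaving out Col 3 gave 17. The 2 calls of lower members became 0 without Col 1, Col 2 or Col 3, 1 without tsk-4 1 and 4 without tsk-4 3. Read ratios below are therefore given with counting intervals or, against 0 Col reads, as lower bounds computed from 3 reads over the Col group and the gene table depths. Intervals cover counting error only. Bounds allow for that of the Col reads alone and take the tsk-4 reads as exact, so they are less strict than the intervals.

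**Figure D3:**
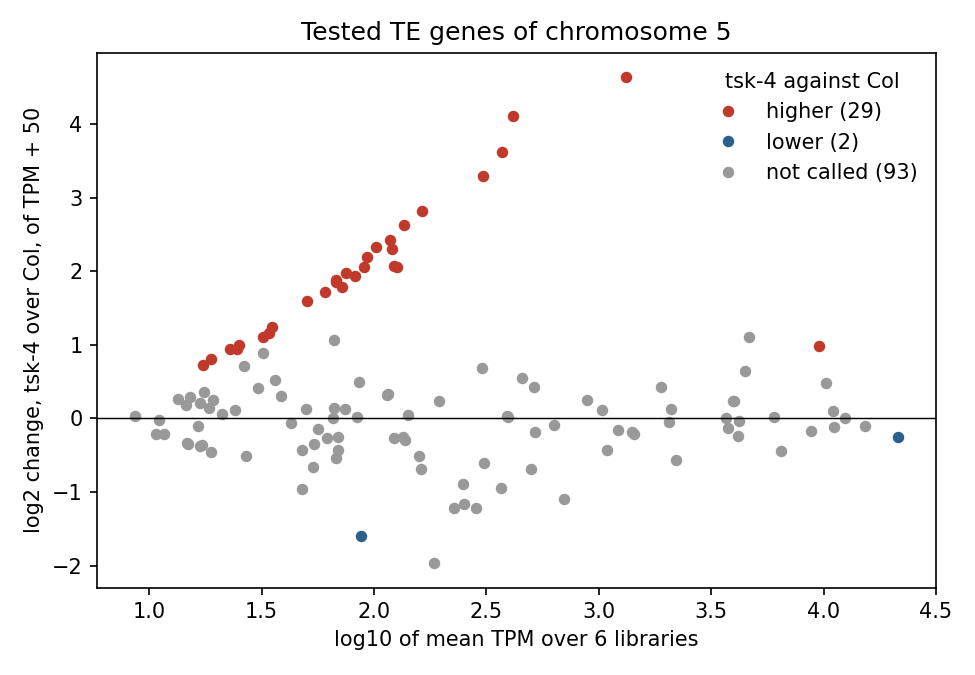
Log2 change, tsk-4 over Col, of TPM + 50 (y axis) against the log10 of mean TPM over the 6 libraries (x axis) for the 124 tested TE genes of chromosome 5, marked by call. Of the 29 members called higher, 28 lie below the level of AT5G20880, and 1 of the 2 called lower is MUG4, the member with the highest mean TPM.

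Apart from AT5G20880, the members called higher were nearly or fully silent in Col. In Col, 25 of the 29 had 0 reads, 3 had 1 to 3 reads and 1 had over 3. Their tsk-4 reads ran from 3 to 418 over the 3 libraries with a median of 11, and 8 had fewer than 10. In a second test, limma-voom on the recovered reads, 21 of the 29 reached the minimum of 10 reads and all 21 were called higher. Of these, 17 had no Col read and passed that minimum through tsk-4 alone, so they had to differ here too. That test called 24 of 82 members higher, where 31.6% of all TE genes it tested were. The TE-dense interval held 46 of the 124 tested members and 17 of the 29 called higher. That is 37.0% of the members tested inside it, against 15.4% (12 of 78) of those tested outside, a description that the filter bears on in the same way.

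AT5G33395 (12664506 to 12666192, plus strand) had the largest log2 change on the log2(TPM + 50) scale. It had 49, 37 and 41 reads in tsk-4, against 2, 0 and 1 in Col, or 2892, 2401 and 2447 TPM in tsk-4 and 145, 0 and 70.4 TPM in Col. All tsk-4 libraries lay far above all Col libraries (log2 change 4.63 ± 0.51, limma adjusted p = 0.00263). The read ratio was 41.3 with a 95% counting interval of 13.8 to 203. With a pseudocount of 0.5 TPM the adjusted p was 0.077 and the log2 change 7.22, below that of AT5G44925 at 10.66, which was also the larger in limma-voom on reads (6.09, against 5.08 for AT5G33395). Its window shown above has 28.7% GC and no match to a tRNA end.

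AT5G44925 (18142274 to 18146632, minus strand) lay far from the TE-dense interval. It had 45, 24 and 37 reads in tsk-4 and 0 in each Col library, or 1028, 603 and 855 TPM in tsk-4 and 0 TPM in Col. It was at least 34.5-fold higher in tsk-4 (log2 change 4.10 ± 0.34, limma adjusted p = 0.00089). It had the most reads of the members silent in Col. The nearest gene, AT5G44930, lies 115 bases away and was not called (limma adjusted p = 0.655).

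Next on the log2(TPM + 50) scale came 2 short members of the interval, AT5G33391 (12649194 to 12649796, plus strand) and AT5G32515. AT5G33391 had 1, 4 and 8 reads in tsk-4 and 0 in Col, at least 4.23-fold higher in tsk-4 (log2 change 3.62 ± 0.69, limma adjusted p = 0.0122). AT5G32515 had 1, 7 and 2 reads in tsk-4 and 0 in Col, at least 3.25-fold higher (log2 change 3.29 ± 0.68, limma adjusted p = 0.0152). In limma-voom on reads their log2 changes were 2.91 and 2.56, below the 4.17 of AT5G35057, the 4.15 of AT5G27925 and the 3.56 of AT5G33389. In both, 1 tsk-4 library had a single read. Without tsk-4 2 the adjusted p was 0.0639 for AT5G33391, while for AT5G32515 it was 0.057 without Col 1 and 0.0586 without Col 2.

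The rest of the 12 members with the largest rises on that scale lay at 2.06 to 2.82 on the log2 scale. AT5G33389 (12645572 to 12647476, plus strand) had 8, 7 and 3 reads in tsk-4 and 0 in Col, at least 5.86-fold higher (log2 change 2.82 ± 0.43, limma adjusted p = 0.00613). AT5G27925 (9949686 to 9954107, plus strand) had 8, 10 and 8 reads in tsk-4 and 0 in Col, at least 8.46-fold higher (log2 change 2.33 ± 0.31, limma adjusted p = 0.00433). AT5G28335 (10308601 to 10313586, minus strand) had 10, 15 and 8 reads in tsk-4, against 1, 1 and 0 in Col, a ratio of 16.1 with an interval of 4.12 to 139 (log2 change 2.07 ± 0.40, limma adjusted p = 0.0125; 0.0955 with a pseudocount of 0.5 TPM). In each of these the tsk-4 libraries lay above the Col libraries. AT5G28335 is 59.2% unique in the genome, so part of its reads could belong to copies elsewhere.

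AT5G30480, AT5G32624 and AT5G33255 each had 10 or 11 tsk-4 reads and 0 Col reads, with log2 changes of 2.62 ± 0.39, 2.42 ± 0.41 and 2.19 ± 0.36 (limma adjusted p = 0.0057, 0.00868 and 0.00781). AT5G32053 had 1, 6 and 7 reads in tsk-4 and 0 in Col (log2 change 2.30 ± 0.59, limma adjusted p = 0.0297), and its call was lost without any 1 library other than tsk-4 1 (adjusted p = 0.0808 to 0.11), with no filter (0.0757) and with a pseudocount of 200 TPM (0.0573). AT5G32197 (11836787 to 11838733, plus strand) had 2, 6 and 2 reads in tsk-4 and 0 in Col (log2 change 2.06 ± 0.45, limma adjusted p = 0.0174) and lost its call without any 1 Col library (0.0627 to 0.0699), with no filter (0.0641) and with a pseudocount of 200 TPM (0.0508). AT5G32197 is the only called member that overlaps a gene of the gene table, MIR854c, a microRNA gene. Reads of overlapping features cannot be told apart in tables for which the use of strand is not given.

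Of the longer members silent in Col, AT5G35057 (13320517 to 13326651, minus strand) had 12, 6 and 9 reads in tsk-4, at least 8.78-fold higher (log2 change 1.98 ± 0.31, limma adjusted p = 0.00647). AT5G33050 (12402098 to 12408478, plus strand) had 3, 4 and 6 reads in tsk-4, at least 4.23-fold higher (log2 change 1.24 ± 0.23, limma adjusted p = 0.0117), and lost its call without Col 1, Col 2 or Col 3 (adjusted p = 0.0636, 0.0632 and 0.0591) and with no filter (0.241). At the low end of the calls, AT5G34500 had 1 read in each tsk-4 library and 0 in Col (log2 change 1.59, limma adjusted p = 0.0057). Such a call rests on 3 reads in all.

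**Figure D4:**
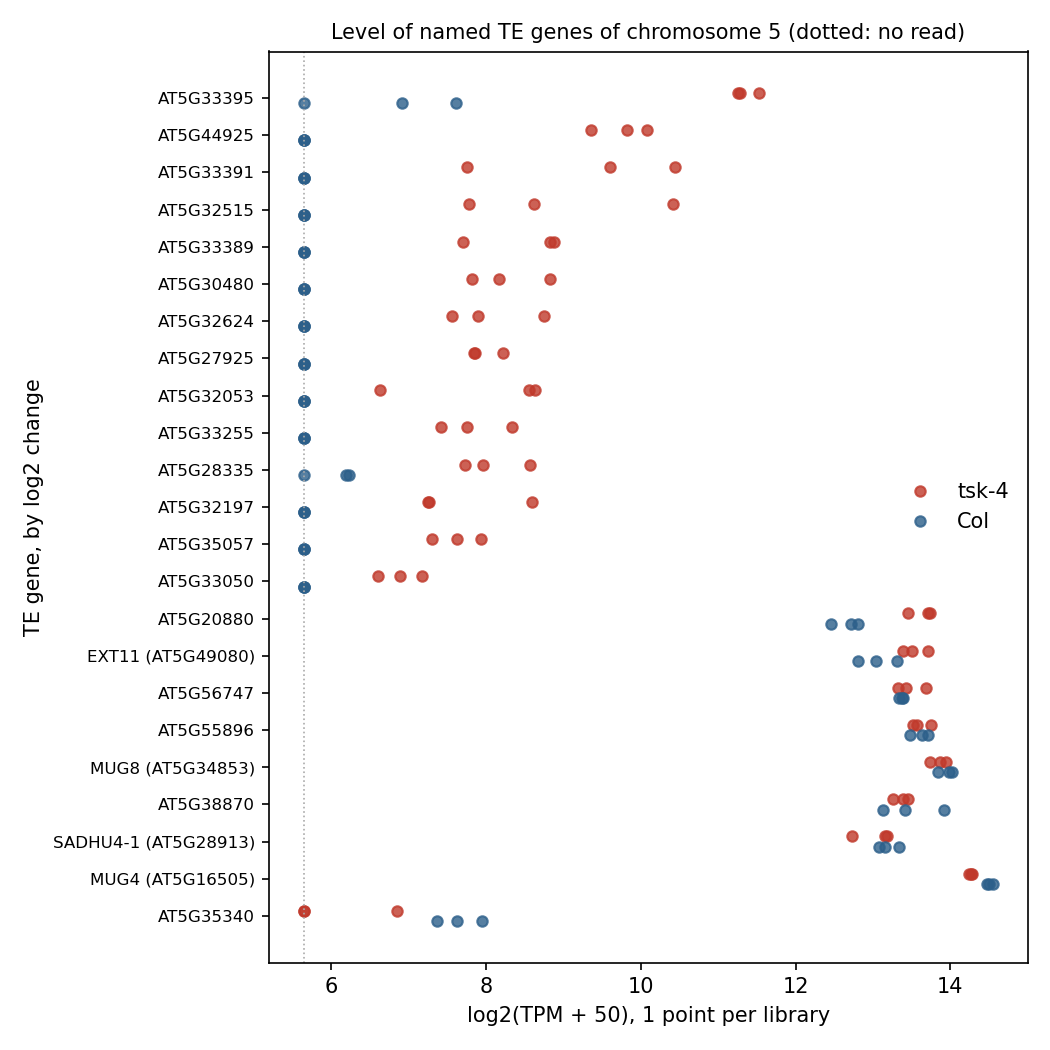
Level of the named TE genes of chromosome 5 as log2(TPM + 50) (x axis), 1 point per library for tsk-4 and Col, ordered by log2 change; the dotted line marks a library with no read. The rows with the largest changes have their Col points at or near the dotted line, while abundant members such as MUG8 have overlapping points.

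A few called members lay close to each other. Within 25 kb of another called member lay 5 of the 29, in 2 groups, a grouping looked for after the calls were seen. AT5G33389, AT5G33391 and AT5G33395 lie on the plus strand within 20.6 kb, with 2 other TE genes between them. AT5G35052 and AT5G35057 lie on the minus strand within 11.5 kb, with no TE gene between them. Of the 406 pairs of called members, 14 shared a stretch of 31 bases, AT5G33391 and AT5G35052 among them, so reads of those pairs may not be fully separable.

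The members that were abundant in Col behaved otherwise. AT5G20880 (7082104 to 7083226, minus strand) was the only one of the 8 members with the highest mean TPM that was called higher. It had 154, 115 and 149 reads in tsk-4, against 65, 55 and 63 in Col, or 12740 ± 1334 TPM in tsk-4 and 6450 ± 777 TPM in Col (SD, n = 3 each). The genotypes did not overlap (log2 change 0.98 ± 0.13, limma adjusted p = 0.00433), and the read ratio was 2.23 with an interval of 1.87 to 2.67. Its nearest gene, AT5G20885, lies 182 bases away on the same strand and was also called higher (log2 change 0.84, limma adjusted p = 5.9e-05; 14.9% of all 19574 genes tested were called higher). The part of reads running on from that gene was not tested.

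EXT11 (AT5G49080, 19890784 to 19892809, minus strand), which carries a symbol of the extensin cell wall proteins, stood at the threshold. It measured 11597, 10698 and 13417 TPM in tsk-4, against 7146, 8337 and 10079 TPM in Col. All 3 tsk-4 libraries lay above all 3 Col libraries (log2 change 0.49 ± 0.15, limma adjusted p = 0.0551). With the TE table scaled to the depth of the gene table the adjusted p was 0.0283, and limma-voom on reads gave 0.00722 with a log2 change of 0.65.

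None of the MUSTANG genes, domesticated transposases that include the members with the 2 highest mean levels, was called higher. MUG4 measured 19845, 19609 and 19305 TPM in tsk-4, against 22752, 23997 and 23216 TPM in Col, and was called lower (log2 change -0.25 ± 0.06, limma adjusted p = 0.0197). In reads it had 474, 426 and 456 in tsk-4, against 441, 500 and 465 in Col, which overlap. The call was lost with scaling to the gene table (log2 change -0.09, adjusted p = 0.387). MUG8 (AT5G34853, 13103678 to 13107090, plus strand) measured 14877, 13566 and 15722 TPM in tsk-4, against 16607, 16084 and 14680 TPM in Col, and was not called (log2 change -0.10 ± 0.09, limma adjusted p = 0.489; 0.06 when scaled to the gene table). MUG6 (AT5G48965), which overlaps the gene AT5G48970, was not called either (log2 change 0.02, limma adjusted p = 0.936).

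The other abundant members also overlapped between genotypes. AT5G55896 (22628017 to 22633342, minus strand) measured 12094, 13791 and 11682 TPM in tsk-4, against 13314, 11336 and 12617 TPM in Col (log2 change 0.01, limma adjusted p = 0.941). AT5G38870, which overlaps the gene AT5G38865, measured 11197, 10647 and 9792 TPM in tsk-4, against 8950, 15437 and 10826 TPM in Col (log2 change -0.12, limma adjusted p = 0.724; 0.04 when scaled to the gene table). AT5G56747 measured 10192, 10970 and 13127 TPM in tsk-4, against 10709, 10331 and 10619 TPM in Col (log2 change 0.11, limma adjusted p = 0.559). Over the 51 members with reads in all 6 libraries the median log2 change was -0.04, and 0.12 with scaling to the gene table. The median of the 201 TE genes read in all libraries was -0.10 as deposited and 0.04 with that scaling, so small changes of abundant members depend on it.

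SADHU elements are small retroposons whose silencing differs among Arabidopsis accessions. SADHU4-1 (AT5G28913) measured 9210, 6751 and 9092 TPM in tsk-4, against 9053, 10307 and 8630 TPM in Col (log2 change -0.17, limma adjusted p = 0.492). SADHU1-3 (AT5G28626) measured 3915, 4818 and 3663 TPM in tsk-4, against 3888, 5224 and 3693 TPM in Col (log2 change -0.04, limma adjusted p = 0.911). Both are expressed in Col, and their libraries overlapped between genotypes. SADHU5-2 (AT5G27927) had 1 read in 1 tsk-4 library and none elsewhere.

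The other member called lower was AT5G35340 (13562792 to 13565902, plus strand). It had 0, 0 and 2 reads in tsk-4, against 5, 4 and 3 in Col. The groups did not overlap (log2 change -1.60 ± 0.45, limma adjusted p = 0.0408), and the read ratio was 0.163 with an interval of 0.0177 to 0.731. In limma-voom on reads it was the 1 member called lower (adjusted p = 0.025; 1.45% of all TE genes in that test were called lower). In limma on TPM its call was lost without any 1 library other than tsk-4 3 (adjusted p = 0.077 to 0.117) and with scaling to the gene table (0.0517). It was also lost with the replicate block (0.101), no filter (0.146) and a filter of mean 50 TPM (0.0613). Pseudocounts of 0.5 and 200 TPM lost it too (0.112 and 0.0533), while median-ratio scaling kept it (0.0441). No member had reads in all 3 Col libraries and none in tsk-4.

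EVD and ONSEN are Copia retrotransposons known to insert anew in Arabidopsis, EVD after loss of DNA methylation and ONSEN after heat in plants that lack small RNAs. EVD (AT5G17125, 5630538 to 5634764, plus strand) had 3, 8 and 3 reads in tsk-4, against 8, 2 and 6 in Col (log2 change -0.26 ± 0.54, limma adjusted p = 0.789). The ONSEN copy AT5G13205 (4208521 to 4212591, minus strand) had 13, 30 and 29 reads in tsk-4, against 12, 14 and 17 in Col (log2 change 0.43 ± 0.38, limma adjusted p = 0.496). Neither was called, and in both the groups overlapped. They are 41.4% and 22.5% unique, so their reads may come from other copies.

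A primer binding site marks the start of many retrotransposons, and members with a match differed in position by the tRNA matched. The last 9 bases of the 625 nuclear tRNA genes with the added CCA end have 114 different complements of 12 bases. Searched on both strands in the 300-base windows, 99 of the 805 members held one (12.3%), 98 of them on their own strand. The complement of methionine tRNA was found in 46 members, in 44 of them as TGGTATCAGAGC. The complement of aspartate tRNA was found in 47 members, in 35 of them as TGGCGCCGTTGC and in 12 as TGGCGTCGTTGC. A match describes the letters of the window and is not a tested site. The match, in capitals, is shown within 60 bases for a called member of each kind, AT5G27925 (chr5:9949649-9949708, plus strand) and AT5G35057 (chr5:13326758-13326817, minus strand).
AT5G27925: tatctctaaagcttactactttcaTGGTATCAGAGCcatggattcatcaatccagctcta
AT5G35057: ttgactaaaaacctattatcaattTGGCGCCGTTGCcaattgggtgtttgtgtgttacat

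Of the aspartate group 42 of 47 members lay in the TE-dense interval (89.4%), and of the methionine group 14 of 46 (30.4%). Holding any match made no such difference. In the interval lay 62 of the 99 members with a match (62.6%) and 438 of the 706 with none (62.0%). Reads in at least 1 library were found for 13 of the 47 aspartate members (27.7%) and for 29 of the 46 methionine members (63.0%). The methionine group is longer, with a median span of 4157 bases against 2751 in the aspartate group.

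Reads of the aspartate group were rare in Col. The group held 24, 16 and 22 reads in tsk-4, against 3, 5 and 1 in Col, on 7, 7 and 5 members in tsk-4 and 2, 3 and 1 in Col. The methionine group held 331, 311 and 314 reads in tsk-4, against 251, 240 and 264 in Col, on 17, 19 and 22 members in tsk-4 and 16, 17 and 15 in Col. In both groups all tsk-4 sums of reads lay above all Col sums. The same held for the 706 members with no match, at 3741, 3453 and 3849 reads in tsk-4, against 2987, 3356 and 3036 in Col. These sums are not scaled to depth, and single members called higher weigh on them. Examples are AT5G35057 in the aspartate group and AT5G44925 in the methionine group, both silent in Col, with their reads given above. The sums without such members were not compared. Of the members called higher, 4 belonged to the methionine group (AT5G27925, AT5G28715, AT5G34965 and AT5G44925) and 1 to the aspartate group (AT5G35057), so that 5 of the 29 held a match (17.2%). They were 4 of 21 tested methionine members and 1 of 4 tested aspartate members, beside 24 of 99 tested members with no match. The groups differ in length and position as well as in reads, and these cannot be told apart.

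The windows of called members also differed in plain composition. The letters TATAAA, on either strand, were in 3 of the 29 windows of members called higher (10.3%), against 280 of all 805 (34.8%). They were in 23 of the 51 windows of members read in all 6 libraries (45.1%) and in 189 of the 513 of members never detected (36.8%). The windows also differed in median GC content, at 38.7% in members called higher, 36.7% over all members and 35.7% in those read in all 6 libraries. The median number of CG dinucleotides per window was 10 in members called higher and 7 over all members. These are counts of letters, untested, and the annotated 5′ end of a TE gene need not be where its RNA starts.

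Genes that silence TEs were examined beside the members in the gene table, as a list of 26 with roles in DNA methylation, histone methylation, small RNAs and chromatin assembly. Of 25 tested, 4 were called higher (14.9% of all genes tested were) and 1 lower (4.96% of all). CMT2, a methyltransferase for non-CG sites in pericentromeric TEs, was lower, with 14.7 ± 0.995 TPM in tsk-4 and 20.9 ± 0.822 TPM in Col (SD, n = 3 each; log2 change -0.49, limma adjusted p = 0.00536). DCL3, which cuts the small RNAs that guide DNA methylation, was higher, with 6.01 ± 0.870 TPM in tsk-4 and 3.67 ± 0.257 TPM in Col (log2 change 0.64, limma adjusted p = 0.018). HTA7, HDA6 and VIM1, for a histone H2A variant, a histone deacetylase and a binder of methylated CG, were higher by 0.36, 0.28 and 0.32 on the log2 scale (limma adjusted p = 0.0212, 0.0283 and 0.0456). The 4 higher calls became 0 without tsk-4 1, Col 1 or Col 2, 1 without tsk-4 3 and 2 without tsk-4 2, while 1 gene was called lower without any 1 library. MET1 and DDM1, which maintain CG methylation and open nucleosomes to it, were not called (log2 change 0.10 and 0.21). The list's median log2 change was 0.16, where that of all genes tested was 0.083.

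Markers of other cells in which TEs are known to be active were also read. The 6 pollen genes summed to 0 to 0.279 TPM in tsk-4 and 0 to 0.140 TPM in Col, with 4 of them at 0 in all libraries. Of the 6 seed genes 5 were tested and none was called, with sums of 56.5 to 113 TPM in tsk-4 and 56.5 to 148 TPM in Col. The pollen markers were thus at or near 0 in both genotypes, and the seed markers overlapped.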

How the data were processed

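Total RNA of 7-day seedlings, 3 tsk-4 and 3 Col libraries, was measured; genotype and replicate number came from the sample titles. Per the labels' protocols a Minibest kit served for extraction and NEBNext Ultra reagents for library preparation. The authors deposited TPM for genes and for TE genes, each summing to 1000000 per library. Build TAIR10 and the tools HISAT2, DESeq2 1.26.0, HTSeq 0.11.2 and fastp 0.20.1 are named in the submitters' processing notes. What each tool did, whether strand was used and how reads with several matches were treated: not given in the sources used here. The table of TE fragments was not used here.

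TPM times the annotated span (TAIR10.1), divided by 1 constant per library, gave whole reads within 0.02 reads for at least 99.76% of the values of the TE gene table. All 3901 TE genes matched the annotation. The main test was limma 3.58.1 (R 4.3.3) on log2(TPM + 50), its variance fitted with a trend over level, over TE genes above 0 in at least 3 of 6 libraries, and on log2(TPM + 0.5) over genes with at least 1 TPM in at least 3. Benjamini-Hochberg adjustment ran over each table, with calls at 0.05. A test on reads was limma-voom with at least 10 reads. The depth of the TE gene table, 20505 to 24565 reads per library, limits most members to a few reads. For library values an exact permutation test, two-sided, was used. The script was tested on simulated data with changes placed only in TE genes averaging at least 3 reads per library. That test does not cover the many calls here that rest on fewer reads. Alternatives were other pseudocounts, filters, scalings, a replicate block, limma-voom and leaving out each library.

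Named members were the 12 called higher with the largest change whose tsk-4 libraries all lay above Col, up to 6 called lower by the same rule, the 8 with the highest mean TPM, the 6 with most tsk-4 reads and none in Col, EVD and the ONSEN copy; others were chosen after their values were seen. The window of 1 further member is not reported here. Members and gene lists were chosen with earlier results of these data known. Further software was SciPy 1.17.1, pandas 2.3.3, NumPy 2.4.6 and matplotlib 3.10.9 under Python 3.11.15.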

Additional observations from a re-analysis of the deposited data

How the results depend on the processing

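Against 29 members called higher, other pseudocounts, scalings, the replicate block and limma-voom gave 20 to 30, no filter gave 13 and a mean of at least 50 TPM gave 17. Leaving out 1 library gave 13 to 25. In every one of the 15 settings that tested them 9 members were called higher, namely AT5G20880, AT5G27925, AT5G30480, AT5G32624, AT5G33255, AT5G33389, AT5G35057, AT5G44925 and AT5G45082. Those described above with 0 Col reads passed each filter through tsk-4 alone, so their recurrence is no separate support. The reads of AT5G45082 are not described above, so its recurrence is not taken as support either. Against 2 called lower, a pseudocount of 200, the mean filter, median-ratio scaling and limma-voom gave 1, no filter, scaling to the gene table and the replicate block gave 0, and leaving out 1 library gave 0 to 4. With the 30% interval the share of reads in the TE-dense interval differed by -0.47. Against 4 silencing genes called higher, median-ratio scaling gave 1, the replicate block 2 and leaving out 1 library 0 to 5; seed genes called lower numbered 0 to 1 without 1 library. Turned in sign were the log2 changes of AT5G34853 (0.0622 scaled to the gene table, 0.0219 by median ratio, 0.0654 in limma-voom) and AT5G38870 (0.0446, 0.0044 and 0.0360 in the same order; -0.2949 to 0.0967 without 1 library), and without 1 library AT5G55896 (-0.0602 to 0.0624) and AT5G17125 (-0.6742 to 0.0458). The cause was not tested. Same-numbered libraries did not deviate together over TE genes (correlations -0.060, 0.023 and 0.006). Over genes the correlations were 0.115, -0.087 and -0.109, within the -0.183 to 0.248 of differently numbered libraries. Few reads per TE gene could hide a pairing, so whether the numbers pair libraries is not settled. With the block 24 members were called higher. Depth of 1 to 3 reads limits most members.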

Other observations

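Genes beside the members called higher were mostly not expressed at a testable level. The nearest gene lay at a median distance of 3301 bases from the 29 members called higher and 5186 bases from all members, and within 1000 bases for 9 of the 29. Over all 29, at any distance, it was tested for 8, called higher for 1, AT5G20885 beside AT5G20880, and called lower for 0. The same shares for the nearest genes of all members are not given here. Beside MUG4, AT5G16510 lies 193 bases away and was called higher (log2 change 0.26, limma adjusted p = 0.0398), while MUG4 itself was called lower on TPM.

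By limma-voom on reads, 3 members were called higher that the test on TPM did not call: AT5G10850, AT5G29975 and EXT11. AT5G10850 had 44, 36 and 37 reads in tsk-4, against 6, 23 and 27 in Col, with Col 1 far below the other Col libraries (log2 change 1.23, limma-voom adjusted p = 0.0438; limma on TPM gave 1.10 with 0.184).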
